A study of Arabidopsis thaliana with 12 samples.

Results

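The genes described here are the EDS1 module of plant immunity and its helper receptors in Arabidopsis thaliana. They were chosen by locus code, 9 genes of the 28775 in the count table: the lipase-like genes EDS1 (AT3G48090), EDS1B (AT3G48080), PAD4 (AT3G52430) and SAG101 (AT5G14930), and the helper receptor genes ADR1 (AT1G33560), ADR1-L1 (AT4G33300), ADR1-L2 (AT5G04720), NRG1.1 (AT5G66900) and NRG1.2 (AT5G66910). All 9 had enough counts to be tested, also when the libraries of the SnRK1-labelled line were left out of that filter.

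The 12 libraries came from whole seedlings of ecotype Col-0, 3 in each of 4 groups. The SnRK1-labelled line is labelled as a knockout of the SnRK1 kinase subunit alpha 1 (KIN10) with an inducible knockdown of subunit alpha 2 (KIN11). Plants of this line and of its own wild type were 14 d old when an additive that the labels name Est was given, for 6 d. The S1-labelled line is labelled as a knockout of the transcription factor genes bZIP1 and bZIP53, with an inducible knockdown aimed at bZIP2, bZIP11 and bZIP44. This line and its wild type stayed off Est for another 5 d, and were given it for 1 d. Every group was 3 weeks old, had grown in 12 h of light and 12 h of dark, and was harvested 6 h into an extended night. No library lacked Est or the extended night, so the response to darkness itself was not measured. The labels give no clone or line number for either mutant, and an effect seen in a line includes both its knockouts and its induced knockdown.

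EDS1 is the shared partner of PAD4 and SAG101, and each pair forms a complex that receives signals from resistance receptors with a TIR domain. The complex with PAD4 works with the ADR1 helpers, and the complex with SAG101 works with the NRG1 helpers, which are receptors with an RPW8-type coiled coil that open calcium-permeable pores in membranes. In leaves the PAD4 branch is best known for raising salicylic acid and restricting pathogen growth, and the SAG101 branch for cell death.

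Library totals ran from 3760168 to 9403687 counts, of which the 9 genes held 1016 to 9150. The libraries of the SnRK1-labelled line stood apart: their 10 most abundant genes took 4.10% to 5.27% of the counts, against 9.49% to 13.6% in the other 9 libraries. In that line KIN11 fell by 1.58 on the log2 scale (SE 0.16, adjusted p = 1.86e-07, edgeR's quasi-likelihood test with Benjamini-Hochberg adjustment) and KIN10 by 0.50 (SE 0.12, adjusted p = 0.00112). KIN10 still stood at 62.4 ± 2.80 CPM there against 88.0 ± 10.7 CPM in its wild type, so these counts do not show the labelled knockout as a loss of its transcript. In the S1-labelled line bZIP1 and bZIP53 fell by 2.62 and 2.26. None of the 3 knockdown targets was called lower, so these counts do not show the labelled knockdown of their transcripts. Their log2 fold changes were 0.01 ± 0.12 for bZIP2 (adjusted p = 0.979), -0.20 ± 0.34 for bZIP11 (adjusted p = 0.872) and 0.85 ± 0.41 for bZIP44 (adjusted p = 0.322, edgeR), the last 2 at mean levels under 2 CPM. KIN11 was called lower in the S1-labelled line too (-0.80 ± 0.16, adjusted p = 0.0135, edgeR). Whether replicates are separate cultures is not stated in the labels. The p-values therefore cover the spread between these libraries, which could be technical. Levels are normalised CPM, counts relative to the scaled library size, given as mean ± SD of n = 3, and each log2 fold change is given with its standard error.

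Tandem gene pairs on the minus strand carry much of the comparison between copies, so their sequences are shown first. In the TAIR10.1 annotation EDS1 lies at chr3:17755329-17758147 and EDS1B just downstream of it at chr3:17752463-17755190, while NRG1.2 lies at chr5:26718130-26721377 and NRG1.1 at chr5:26714723-26717958. The coding sequences of EDS1 and EDS1B are 84% identical, with a longest identical run of 44 bases, and those of NRG1.1 and NRG1.2 are 84.1% identical, with a longest run of 79. Below are the 90-base stretches of aligned coding sequence in which the EDS1 copies differ least and most, and that in which the NRG1 copies differ least. Capitals mark the bases that differ between the copies, and positions count from 1 at the first base of the start codon.
EDS1, coding bases 1182 to 1271: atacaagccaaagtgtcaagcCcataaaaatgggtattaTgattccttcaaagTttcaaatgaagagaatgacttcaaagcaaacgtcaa
EDS1B, coding bases 1197 to 1286: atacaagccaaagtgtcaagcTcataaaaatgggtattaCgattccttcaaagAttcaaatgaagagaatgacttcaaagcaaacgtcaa
EDS1, coding bases 583 to 672: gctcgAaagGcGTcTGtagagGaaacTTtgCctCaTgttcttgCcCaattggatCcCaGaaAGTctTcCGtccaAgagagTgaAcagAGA
EDS1B, coding bases 583 to 672: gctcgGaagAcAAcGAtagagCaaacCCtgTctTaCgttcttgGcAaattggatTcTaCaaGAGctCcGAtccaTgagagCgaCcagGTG
NRG1.1, coding bases 1861 to 1950: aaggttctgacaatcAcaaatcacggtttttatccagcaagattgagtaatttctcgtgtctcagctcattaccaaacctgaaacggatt
NRG1.2, coding bases 1735 to 1824: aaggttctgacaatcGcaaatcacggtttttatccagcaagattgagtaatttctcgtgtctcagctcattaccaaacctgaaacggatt
The EDS1 stretches differ at 3 bases in the most alike window and at 29 in the least alike, and the NRG1 stretches shown differ at 1 base. Reads from such stretches can be shared between the copies, and the sources used here do not give how the counting treated them. Of all distinct 50-base stretches of exon, 0.919% of those in EDS1 recur in EDS1B. The share is 2.41% in NRG1.1 and 2.42% in NRG1.2. In EDS1B 18.9% recur elsewhere, mostly in AT3G48070, a gene on the opposite strand whose exons cover 19.5% of those of EDS1B. ADR1-L1 shares 23.4% of its exon length with 3 genes on the opposite strand and 0% of its 50-base stretches with the other members, and PAD4, SAG101, ADR1 and ADR1-L2 share none.

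The first comparison asks how the module depends on SnRK1, the energy-sensing kinase complex of plant cells. All 4 lipase-like genes rose in the SnRK1-labelled line, by 6.07-fold to 44.8-fold over its wild type. Of the helpers, NRG1.2 rose 5.09-fold, the 3 ADR1 genes rose 1.87-fold to 2.71-fold, and NRG1.1 did not pass the test. In all, 8 of the 9 members were called higher and 0 lower, where 35.4% of all 18388 genes tested were called higher and 33.0% lower. In whole seedlings, more cells of a type and more RNA per cell cannot be told apart.

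EDS1, the lipase-like partner that both complexes need, stood at 9.89, 9.37 and 10.1 CPM in wild-type libraries, against 74.5, 79.0 and 70.5 CPM in those of the SnRK1-labelled line. The groups were far apart and each was tight. The log2 fold change was 2.94 ± 0.14 (95% interval 2.64 to 3.23, adjusted p = 3.11e-11, edgeR's quasi-likelihood test with Benjamini-Hochberg adjustment).

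EDS1B, its tandem copy, was counted 6, 4 and 1 times in wild-type libraries and 199, 389 and 179 times in the mutant ones, or 0.771, 0.657 and 0.288 against 24.9, 35.1 and 26.8 CPM. No library of the line came near those of the wild type. The log2 fold change, the largest of the 9, was 5.48 ± 0.38 (95% interval 4.67 to 6.29, adjusted p = 2.63e-09, edgeR). The wild-type level rests on 11 counts in all. The opposite-strand neighbour AT3G48070 moved the other way, from 28.5 ± 3.06 to 20.8 ± 1.83 CPM, and fell by 0.47 on the log2 scale (adjusted p = 0.00206, edgeR).

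PAD4, the partner of EDS1 in basal resistance, had wild-type levels of 5.65, 6.90 and 7.49 CPM and levels of 71.1, 73.7 and 54.1 CPM in the line. The lowest library of the line was still above every wild-type library. PAD4 rose by 3.35 ± 0.17 on the log2 scale (95% interval 2.99 to 3.71, adjusted p = 5.64e-11, edgeR).

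SAG101, named for its association with leaf senescence and the partner of EDS1 in the NRG1 branch, had wild-type levels of 15.8, 15.8 and 19.6 CPM and mutant levels of 99.5, 115 and 91.0 CPM. These groups did not overlap either. Its log2 fold change was 2.60 ± 0.13 (95% interval 2.32 to 2.88, adjusted p = 6.50e-11, edgeR).

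**Figure D1:**
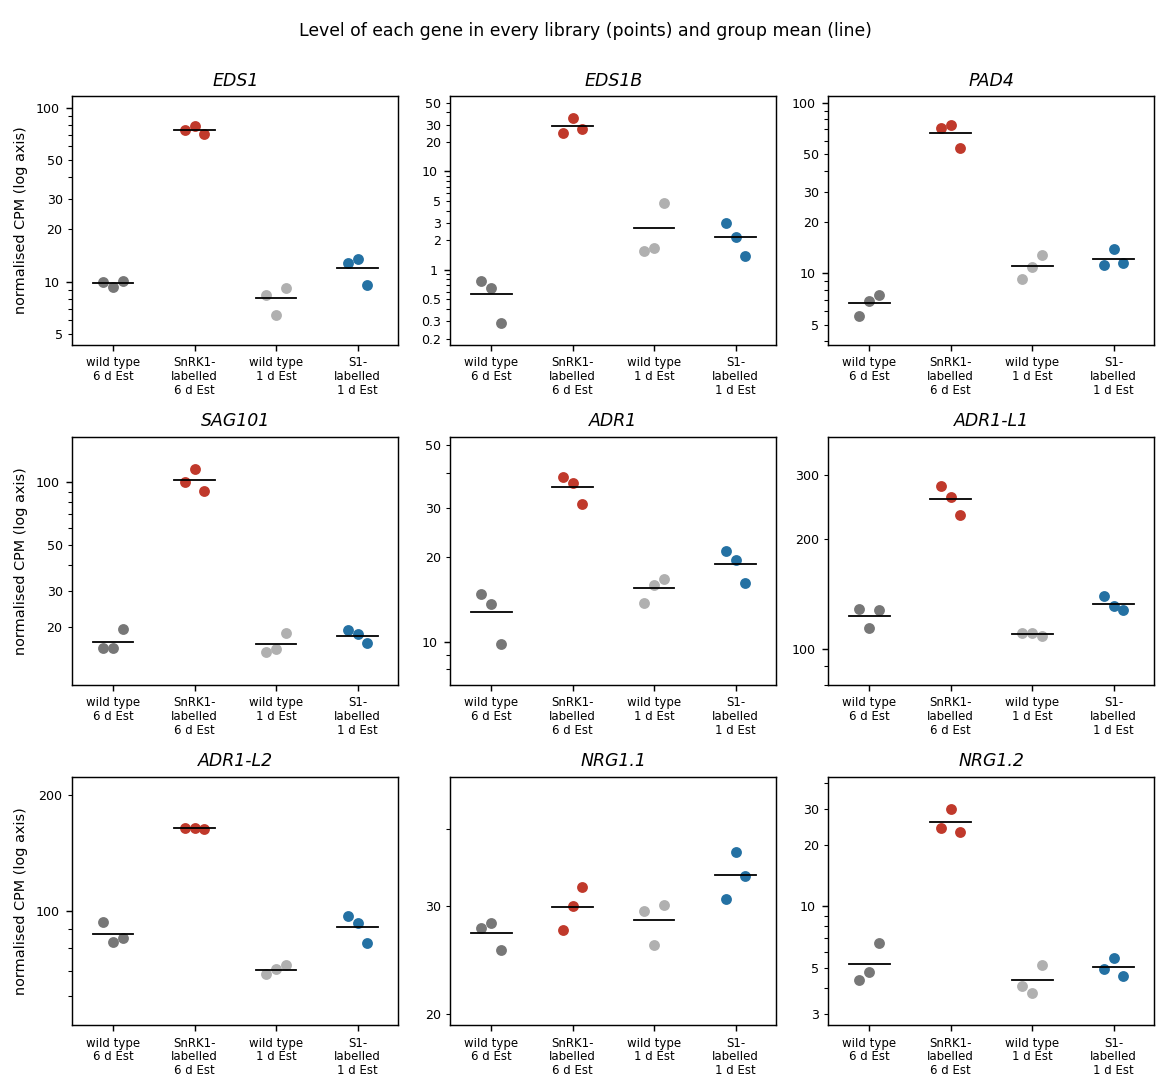
Normalised CPM of each of the 9 genes (log axis, a scale of its own in each panel) in the 4 groups, with a point for each library and a line at the mean of 3. In 8 panels the 3 libraries of the SnRK1-labelled line lie above the other 9, as for EDS1 at 70.5 to 79.0 CPM. The share of all genes that do so is not given here. In the NRG1.1 panel all 4 groups overlap their neighbours.

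The ADR1 helpers had smaller fold changes. ADR1 went from 14.8, 13.6 and 9.80 CPM to 38.6, 36.9 and 30.9 CPM, without overlap (log2 fold change 1.44 ± 0.15, 95% interval 1.11 to 1.77, adjusted p = 3.65e-07, edgeR). ADR1-L1 went from 129, 114 and 128 to 280, 261 and 233 CPM (1.06 ± 0.11, adjusted p = 3.22e-07, edgeR). Of its opposite-strand neighbours, AT4G33290 had 0 to 11 counts per library and AT4G33310 18 to 85, against 445 to 2897 for ADR1-L1. No level is available here for AT4G08785, which also overlaps ADR1-L1. ADR1-L2 went from 93.6, 83.2 and 85.3 to 164, 164 and 163 CPM (0.91 ± 0.10, 95% interval 0.68 to 1.13, adjusted p = 8.39e-07, edgeR), which was under 2-fold. All 3 ADR1 genes were higher in every library of the line than in every library of the wild type. What share of all genes tested separate in this way is not given here. At least 2-fold higher calls were made for 7 members, where 23.1% of all genes tested met that rule.

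The NRG1 copies gave different results. NRG1.2 went from 4.37, 4.77 and 6.63 CPM to 24.2, 29.7 and 23.1 CPM, without overlap (log2 fold change 2.35 ± 0.18, 95% interval 1.96 to 2.74, adjusted p = 9.69e-09, edgeR). NRG1.1 was at 27.6, 28.1 and 25.4 CPM against 27.4, 30.0 and 32.2 CPM, and these groups overlapped. Its log2 fold change was 0.14 ± 0.12 (95% interval -0.11 to 0.38, adjusted p = 0.305, edgeR).

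The NRG1.1 result depended on how libraries were scaled. With library totals alone the median log2 fold change of all genes moved from 0.04 to 0.64, and NRG1.1 was called higher at 0.74 (adjusted p = 8.01e-05, edgeR). Scaling on the 5000 most expressed genes gave a median of 0.40 and an NRG1.1 value of 0.50 (adjusted p = 0.00155, edgeR). Relative to the median of all genes, NRG1.1 stood at 0.10 under all 3 scalings, EDS1 at 2.90, PAD4 at 3.31 and ADR1-L2 at 0.86 to 0.87. The share of called genes that were higher was 51.8% in the main scaling, 78.0% by library totals and 68.7% on the 5000 genes.

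**Figure D2:**
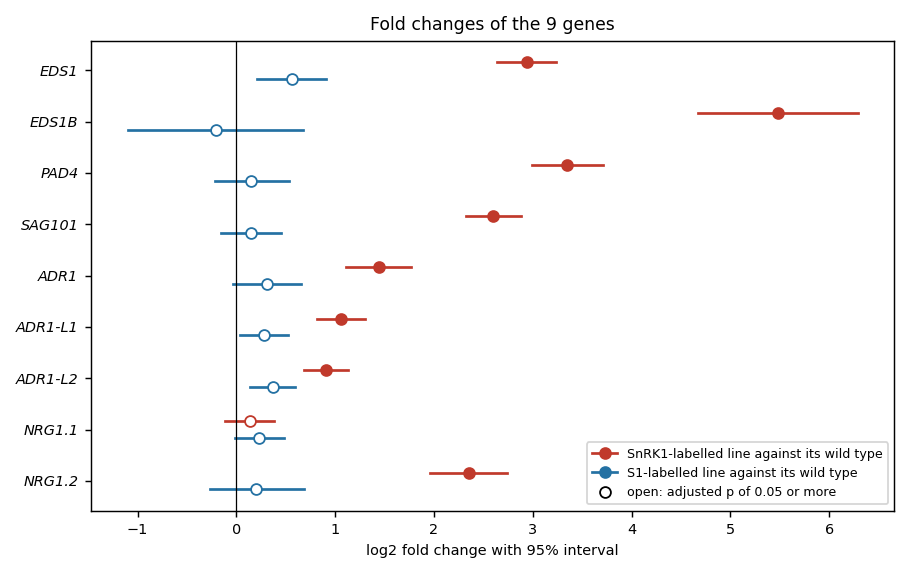
Log2 fold change of each member, with its 95% interval, in each line against its wild type. The SnRK1-labelled line has 8 intervals above 0, from 0.68 at the lower end for ADR1-L2 to 6.29 at the upper end for EDS1B, while the interval of NRG1.1 spans 0.

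The share of each copy within its pair was also computed, which needs no scaling between libraries. EDS1B made up 7.23%, 6.56% and 2.78% of the counts of the EDS1 pair in wild-type libraries, against 25.1%, 30.8% and 27.6% in the SnRK1-labelled line. In the wild-type library with 2.78% the 95% Wilson interval ran from 0.492% to 14.2%, since it rests on 1 count of 36. NRG1.2 made up 13.7%, 14.5% and 20.7% of the NRG1 pair in wild-type libraries, against 46.8%, 49.7% and 41.7% in the line. Neither share overlapped between these groups, and the means differed by 22.3 points for EDS1B and by 29.8 points for NRG1.2. Each gave p = 0.1 in a two-sided exact permutation test, the smallest that 3 against 3 libraries allow (0.240 after Benjamini-Hochberg adjustment over 6 such comparisons). In the wild type with 1 d of Est the EDS1B share was 15.5%, 20.6% and 34.3%, so its highest library lay above all 3 of the SnRK1-labelled line, and in the S1-labelled line it was 19.1%, 13.8% and 12.5%. ADR1-L2 made up 41.4% ± 1.24 of its pair with ADR1-L1 in wild-type libraries, against 38.9% ± 2.09 in the line, and these overlapped (exact permutation p = 0.200, adjusted 0.240). These intervals cover counting error only.

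**Figure D3:**
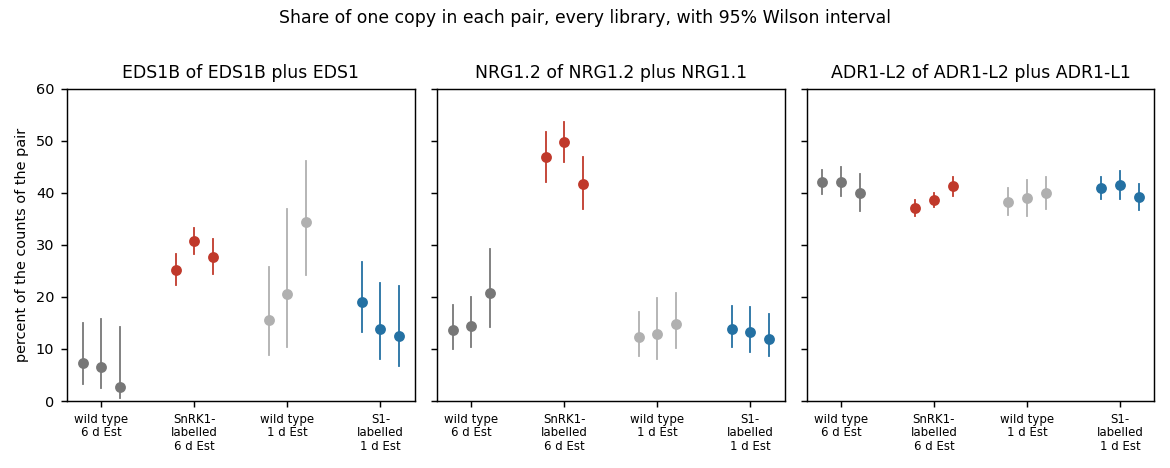
Percent of a pair's counts that belong to EDS1B, NRG1.2 or ADR1-L2 in every library, with 95% Wilson intervals. The share of NRG1.2 is 41.7% to 49.7% in the SnRK1-labelled line and at most 20.7% in any other library, while that of EDS1B reaches 34.3% in a wild-type library with 1 d of Est, above the 25.1% to 30.8% of the SnRK1-labelled line.

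Levels can be set beside each other between genes only per length, so CPM were divided by the exon length of the annotation. On that scale, in CPM per kilobase, the helpers outweighed the lipase-like genes in every library. ADR1-L2 at 30.8 ± 1.96 and ADR1-L1 at 29.7 ± 1.96 were the 2 highest members in the wild type with 6 d of Est, followed by NRG1.1 at 9.15 ± 0.497 and SAG101 at 7.75 ± 0.997. EDS1B was lowest at 0.222 ± 0.0980. The exon length of ADR1-L1, 4167 bases, joins all annotated transcripts, so its value per length may be too low and its place beside ADR1-L2 is uncertain.

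In the SnRK1-labelled line ADR1-L1 and ADR1-L2 were again highest per length, at 61.9 ± 5.65 and 57.7 ± 0.284, but SAG101 came next at 46.3 ± 5.54, ahead of PAD4 at 29.4 ± 4.71 and EDS1 at 29.3 ± 1.66. NRG1.1 at 10.1 ± 0.819 and NRG1.2 at 8.84 ± 1.21 were now close together, and their libraries overlapped. Summed over the 4 lipase-like genes, the level per kilobase was 17.4%, 19.5% and 21.7% of the summed level of the 5 helpers in the wild type. It was 74.2%, 84.4% and 72.5% in the line. In the S1 experiment this ratio was 22.3%, 22.6% and 28.4% for wild-type libraries and 22.9%, 24.2% and 21.7% for the line, and these overlapped.

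**Figure D4:**
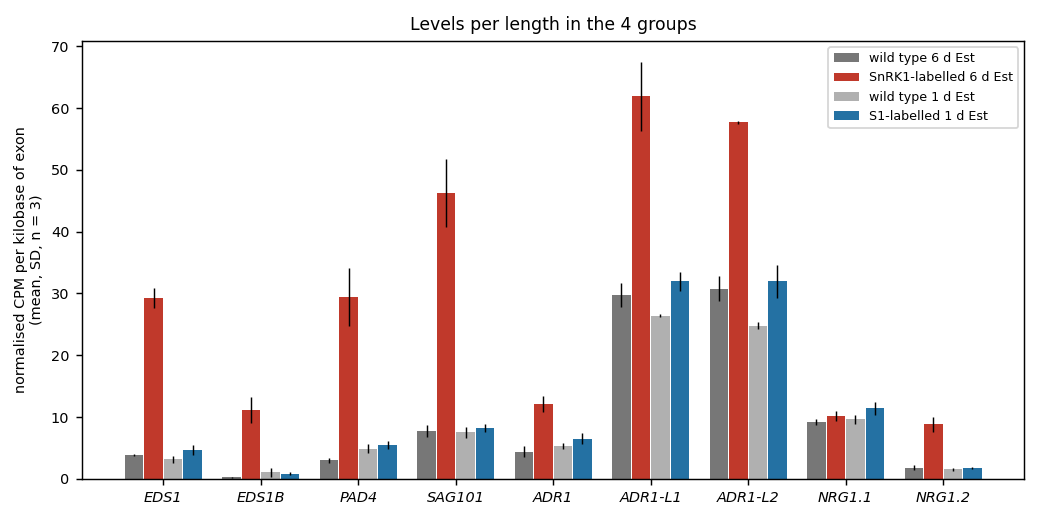
Normalised CPM per kilobase of exon for the 9 genes in the 4 groups, as bars at the mean of 3 with the SD. SAG101 goes from 7.75 to 46.3 between the wild type and the SnRK1-labelled line and NRG1.1 from 9.15 to 10.1.

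The second comparison asks the same of the S1 group of bZIP transcription factors. None of the 9 members passed the test: 0 were called higher and 0 lower by edgeR's quasi-likelihood test, where 1.63% of all genes were called higher and 0.952% lower. At an unadjusted p under 0.05 there were 3 members, EDS1, ADR1-L1 and ADR1-L2, where 2992 of the 18388 genes tested met that rule. DESeq2 called 1 member and limma-voom 0. Of the fitted values 8 were above 0, and the median over the members was 0.23, against -0.00 over all genes tested.

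EDS1 was at 8.43, 6.41 and 9.18 CPM in the wild type with 1 d of Est and at 12.8, 13.5 and 9.63 CPM in the S1-labelled line. Every library of the line was above every library of the wild type, by a narrow margin. The log2 fold change was 0.56 ± 0.16 (95% interval 0.21 to 0.91, adjusted p = 0.0873, edgeR), and it passed without replicate 3 of the line (adjusted p = 0.0473) and by library totals (adjusted p = 0.0480).

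ADR1-L2 was at 68.7, 70.5 and 72.2 CPM against 97.1, 93.2 and 82.4 CPM, also without overlap. Its log2 fold change of 0.37 ± 0.11 (95% interval 0.14 to 0.59) missed the threshold in edgeR (adjusted p = 0.0822). It passed by library totals (0.0228), with DESeq2 (0.0310), in a fit of only the 2 groups (0.0388) and without replicate 3 of the SnRK1-labelled line (0.0439). ADR1-L1 was at 111, 111 and 109 CPM against 140, 131 and 128 CPM (0.28 ± 0.11, adjusted p = 0.227, edgeR), again without overlap.

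The other 6 members had adjusted p-values from 0.337 to 0.863. PAD4 was at 9.27, 10.9 and 12.8 CPM against 11.2, 13.8 and 11.5 CPM, and the groups overlapped. SAG101 was at 15.2, 15.7 and 18.8 against 19.4, 18.5 and 16.7 CPM, with 0.15 ± 0.14 on the log2 scale. EDS1B had 11, 7 and 24 counts against 25, 12 and 9, and its value of -0.21 ± 0.42 (95% interval -1.10 to 0.67) became 0.49 without replicate 3 of the wild type. A change as large as its 5.48 in the SnRK1-labelled line lies outside that interval.

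NRG1.1 had the highest mean of its 4 groups in the S1-labelled line, at 30.7, 36.7 and 33.5 CPM against 29.4, 25.9 and 30.1 in the wild type (0.23 ± 0.12, adjusted p = 0.337, edgeR). NRG1.2 was at 4.07, 3.80 and 5.19 CPM against 4.94, 5.58 and 4.59 CPM. ADR1 was at 13.8, 15.9 and 16.8 against 21.1, 19.6 and 16.2 CPM (0.31 ± 0.16, adjusted p = 0.364, edgeR). The share of NRG1.2 in its pair differed by -0.194 points between the groups (exact permutation p = 0.900), and that of EDS1B by -8.33 points (exact permutation p = 0.200).

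The responses of the lines were then compared directly, as the log2 fold change in the SnRK1-labelled line minus that in the S1-labelled line. This difference passed the test for 8 of 9 members, all positive, where 27.2% of all genes tested were called positive and 27.3% negative. It was largest for EDS1B at 5.70 ± 0.63 (adjusted p = 2.11e-06, edgeR) and for PAD4 at 3.19 ± 0.25 (adjusted p = 8.36e-08). SAG101 at 2.46 ± 0.20, EDS1 at 2.37 ± 0.22 and NRG1.2 at 2.14 ± 0.30 followed. The ADR1 genes were lower, with ADR1 at 1.13 ± 0.22, ADR1-L1 at 0.78 ± 0.16 and ADR1-L2 at 0.54 ± 0.15 (adjusted p = 0.00589, edgeR). For NRG1.1 the difference was -0.10 ± 0.16 (95% interval -0.44 to 0.25, adjusted p = 0.646, edgeR). Days of Est differed between the experiments along with the genotype, so the 2 cannot be told apart.

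The wild types themselves, with 6 d against 1 d of Est, differed for 2 of 9 members, both lower after 6 d, where 5.94% of all genes were called lower and 6.17% higher. EDS1B was lower by a log2 value of -2.01 ± 0.56 (95% interval -3.19 to -0.82, adjusted p = 0.0278, edgeR), on 6, 4 and 1 counts against 11, 7 and 24. PAD4 was lower by -0.73 ± 0.20 (95% interval -1.16 to -0.31, adjusted p = 0.0250, edgeR), with 5.65 to 7.49 CPM against 9.27 to 12.8. Neither call held when single libraries were left out. EDS1B had -1.31 (adjusted p = 0.162) without replicate 3 of the wild type with 1 d of Est, and adjusted p-values of 0.0675, 0.0824 and 0.0782 without replicates 1, 2 and 3 of that with 6 d. PAD4 missed the threshold without replicates 1 (0.119) or 2 (0.0621) of the wild type with 6 d and without replicates 2 (0.0606) or 3 (0.106) of that with 1 d. The other 7 members were not called, with ADR1-L2 nearest at 0.31 (adjusted p = 0.0668, edgeR).

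Ordered by mean level over the 4 groups, the SnRK1-labelled line came first for 8 members and none of its libraries overlapped the second group. The share of all genes tested that separate in this way is not given here. For EDS1, PAD4, SAG101 and the 3 ADR1 genes the S1-labelled line was second and overlapped the third group. EDS1B had the wild type with 1 d of Est second and that with 6 d of Est last, apart from the third. NRG1.2 had no separation among the other 3 groups. For NRG1.1 every neighbour in the order overlapped.

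The wider pathway was read from lists of related genes, whose counts stand beside the 35.4% of all genes tested that were called higher and the 33.0% called lower in the SnRK1-labelled line. Some listed genes passed the filter on low counts only through that line, so they had to differ: PBS3, ALD1, FMO1, WRKY46 and WRKY54 of the first list, CHS1 and TN2 among TIR-type receptors, and NRG1.3, PEPR2 and NUDT6. In the SnRK1-labelled line 19 of 19 genes for salicylic acid and pipecolic acid, the immune signals that the module raises, were called higher. Their median log2 fold change was 5.76 against 0.04 over all genes tested. Both the count and the median include the 5 genes of this list that passed the filter only through that line. The median was the same with FMO1 and PR1 at their lower bound. ICS1, the isochorismate synthase of salicylic acid production, went from 8.86, 9.86 and 12.1 to 217, 262 and 190 CPM (4.48 ± 0.16, adjusted p = 1.06e-12, edgeR). PBS3, which acts after it in the same pathway, went from 0.486 ± 0.186 to 236 ± 42.3 CPM. The regulator WRKY70 went from 6.67 ± 0.801 to 184 ± 24.2 CPM, and WRKY46 from 1 count in the whole wild-type group to 146 ± 15.3 CPM. FMO1, the enzyme that makes N-hydroxypipecolic acid, and PR1, the marker gene of salicylic acid responses, had 0 counts in that wild type. With the wild-type group set to a floor of 3 counts in all, they were at least 461-fold and at least 1090-fold higher. In the S1-labelled line 1 of the 19 was called, the salicylic acid receptor gene NPR4 (0.60 ± 0.13, adjusted p = 0.0180, edgeR), and 0 were lower.

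Receptors upstream of the module moved in both directions. Of 18 TIR-type receptor genes 16 were tested, and 11 rose and 2 fell in the SnRK1-labelled line (median 0.67). CHS1 and TN2, which passed the filter only through that line, are among the 11. RRS1, which pairs with RPS4 in recognition, went from 18.2, 14.8 and 13.8 to 38.8, 39.5 and 32.2 CPM (1.22 ± 0.14, adjusted p = 5.89e-07, edgeR), and BNT1 from 9.61 ± 0.913 to 20.8 ± 2.19 CPM. SOC3 went from 0.793 ± 0.422 to 12.5 ± 0.731 CPM and CHS1 from 0.378 ± 0.336 to 4.99 ± 1.07 CPM, but their exons overlap on opposite strands and their values are uncertain. TN2 had 0 counts in the wild type and was at least 19.8-fold higher in the line, against the same floor. By library totals 14 of the 16 were higher and 0 lower, where 10448 of all 18388 genes tested were higher and 2945 lower. Their median by library totals was 1.27 beside the 0.64 of all genes. RPP4 was the TIR-type receptor called in the S1-labelled line (0.58 ± 0.12, adjusted p = 0.0172, edgeR), and 29.1% of its 50-base stretches recur in other genes.

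Among 8 genes of receptors with another coiled coil and their partner NDR1, 4 rose and 2 fell in the SnRK1-labelled line (median 0.50). This is near the shares over all genes in the main scaling. By library totals 5 rose and 0 fell, where 10448 of all 18388 genes tested rose and 2945 fell. ZAR1, a receptor that forms its own resistosome pore, went from 89.8, 81.7 and 75.2 to 233, 200 and 190 CPM (1.33 ± 0.12, adjusted p = 6.57e-08, edgeR). NDR1 went from 0.870 ± 0.583 to 8.36 ± 1.45 CPM. RPS2 had a value of 1.24 ± 0.15 that is uncertain, since 100% of its exon is overlapped by another gene. RPP13 passed in both lines, at 0.89 ± 0.11 and at 0.56 ± 0.11 (adjusted p = 0.0102 in the S1-labelled line, edgeR), with 33% of its exon overlapped.

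Of 6 genes that are truncated helper copies or homologs of RPW8, 3 were tested. HR3 and HR4 rose in the SnRK1-labelled line, and NRG1.3 was tested only because of its counts there. HR4, an RPW8 homolog, went from 65.4, 69.8 and 92.8 to 286, 322 and 297 CPM (2.00 ± 0.15, adjusted p = 6.60e-09, edgeR) and was also called in the S1-labelled line (0.88 ± 0.15, adjusted p = 0.00511). HR3 went from 3.13 ± 0.216 to 14.3 ± 2.52 CPM. NRG1.3, a truncated copy in the NRG1 cluster, had 1 count in the wild type and was at 2.63, 2.97 and 1.80 CPM in the line.

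All 8 surface receptor and co-receptor genes rose in the SnRK1-labelled line (median 1.50), among them PEPR2, which passed the filter only through that line. SOBIR1, the co-receptor of receptor-like proteins, went from 76.4 ± 10.9 to 398 ± 45.3 CPM, with 32% of its exon overlapped, and CERK1, the chitin co-receptor, from 25.9 ± 2.78 to 54.2 ± 4.59 CPM. PEPR2 was at 46.7, 15.1 and 16.8 CPM in the line, so its spread was wide. EFR, the receptor for bacterial elongation factor Tu, rose in both lines (2.92 ± 0.22, and 1.12 ± 0.24 with adjusted p = 0.0210 in the S1-labelled line, edgeR). Of 5 chaperone genes for receptors 4 rose and 0 fell in the SnRK1-labelled line. HSP90.1 went from 3.88 ± 0.876 to 87.7 ± 27.2 CPM and HSP90.2 from 35.2 ± 4.71 to 389 ± 92.8 CPM. Of the 50-base stretches of HSP90.2, 18.8% recur in other genes. SGT1A and SGT1B rose by 0.54 ± 0.12 and 0.28 ± 0.10. None of the 5 was called in the S1-labelled line by edgeR, and 1 had an unadjusted p under 0.05, where 2992 of all 18388 genes tested did.

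Of 10 genes listed as negative regulators of EDS1-dependent immunity, 6 rose and 3 fell in the SnRK1-labelled line (median 0.85). By library totals 7 rose and 1 fell, where 10448 of all 18388 genes tested rose and 2945 fell. NUDT7, a Nudix hydrolase that restrains EDS1 signalling, went from 15.5, 18.1 and 15.3 to 125, 128 and 136 CPM (2.99 ± 0.13, adjusted p = 8.44e-12, edgeR). NUDT6 went from 0.250 ± 0.247 to 18.9 ± 4.66 CPM. The kinase gene MPK4 went from 33.7 ± 2.14 to 84.8 ± 8.53 CPM, with 25.8% of its exon overlapped. NUDT6, counted among the 6, passed the filter only through the SnRK1-labelled line. BON1 had 2.23 ± 0.13 with 94.4% of its exon overlapped, so its value is uncertain. CAMTA3 was called in both lines (0.50 ± 0.11, and 0.46 ± 0.12 with adjusted p = 0.0456 in the S1-labelled line, edgeR).

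Tissue markers also moved in the SnRK1-labelled line. The summed level of 3 leaf markers (RBCS1A, CAB1 and RCA), all of which fell, was 5886 to 12721 CPM against 46540 to 61614 CPM in its wild type. In the S1 experiment it was 41522 to 53636 CPM in the line and 56750 to 68392 CPM in the wild type. The summed level of 10 root markers was 31.2 to 33.5 CPM against 30.5 to 38.1 CPM, and of the 4 tested 2 rose and 2 fell. SCR held much of that sum, at 22.8 ± 1.74 CPM in the line and 17.9 ± 2.75 CPM in the wild type. SCR rose 1.25-fold and SHR 1.39-fold, while CASP1 fell 7.37-fold and CASP2 24.9-fold. Flower markers summed to 0.631 to 1.00 CPM in the SnRK1-labelled line against 2.47 to 8.93 CPM, and PI, the 1 tested, fell by 3.67 on the log2 scale (adjusted p = 5.11e-05, edgeR). Seed markers summed to at most 0.288 CPM in any library, with at least 3 of the 4 seed markers at 0 counts in every group. The part of tissue make-up in the results on the members was not tested.

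**Figure D5:**
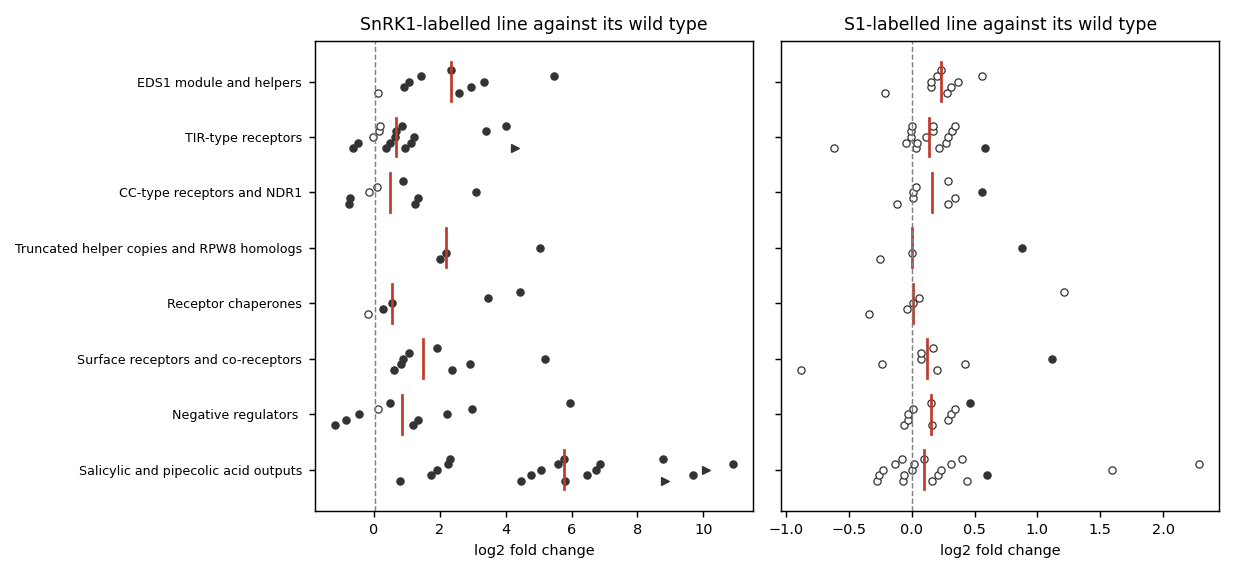
Log2 fold changes of the members and of the 7 lists of related genes in each line against its wild type. Filled marks passed the test, open marks did not, and red lines are medians of the values as drawn. Triangles mark TN2, FMO1 and PR1, drawn at the lower bound since their wild type had 0 counts. The 19 salicylic and pipecolic acid genes, 5 of which passed the filter only through the SnRK1-labelled line, have a median of 5.76 on the left. At most 1 gene of a list is filled on the right.

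The genes most like a member were found by the root mean square difference of centred log2 CPM over the 12 libraries, a description that the contrast of 1 line dominates. For EDS1 they were AT5G05190 at 0.14 and the glutamine synthetase gene GSR 1 at 0.17. For PAD4 they were SEC1B at 0.18 and FKBP53 at 0.19, and for SAG101 AT2G36580 at 0.09. ADR1 lay nearest to ZAR1 at 0.12. Among the members the closest were ADR1-L1 and ADR1-L2 at 0.09, then SAG101 and NRG1.2 at 0.14, while EDS1 and SAG101 lay at 0.25 and NRG1.1 and NRG1.2 at 1.03.

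Since 8 members rose together, the members' promoters are described for short motifs known from immune and bZIP regulation. The 250 bases before the annotated start are printed for EDS1 and PAD4, the first partners of the module, and for NRG1.2, the NRG1 copy that passed the test in the SnRK1-labelled line. They were read from the RefSeq genome, build TAIR10.1, 5′ to 3′ on the gene's strand, and capitals mark the W-box core TTGAC or its reverse complement.
EDS1, chr3:17758148-17758397, minus strand: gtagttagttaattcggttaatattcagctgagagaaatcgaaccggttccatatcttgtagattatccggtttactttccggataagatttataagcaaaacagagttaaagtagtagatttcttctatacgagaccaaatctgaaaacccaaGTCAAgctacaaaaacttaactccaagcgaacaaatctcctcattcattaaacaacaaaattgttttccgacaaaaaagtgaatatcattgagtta
PAD4, chr3:19430845-19431094, plus strand: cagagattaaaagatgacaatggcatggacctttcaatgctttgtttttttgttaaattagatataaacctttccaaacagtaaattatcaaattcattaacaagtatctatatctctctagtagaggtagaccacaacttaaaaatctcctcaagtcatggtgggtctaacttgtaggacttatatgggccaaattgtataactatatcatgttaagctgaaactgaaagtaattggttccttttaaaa
NRG1.2, chr5:26721378-26721627, minus strand: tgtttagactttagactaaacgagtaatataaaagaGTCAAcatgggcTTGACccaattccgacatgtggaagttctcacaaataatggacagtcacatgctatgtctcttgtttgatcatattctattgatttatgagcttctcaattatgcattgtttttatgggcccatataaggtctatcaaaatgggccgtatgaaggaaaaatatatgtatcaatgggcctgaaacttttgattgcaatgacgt
EDS1 has its W-box core 96 bases before the start and NRG1.2 has 2 of them, 214 and 202 bases before it, while that of PAD4 lies 30 bases after the start and outside the letters printed. Over the window from 250 bases before to 50 after the start, on both strands, TTGAC was found in 7 of 9 members and in 50.5% of 27443 promoters. It was not found in the windows of ADR1 and ADR1-L2, which were called higher in the SnRK1-labelled line. NRG1.1, which was not called there, has it 36 bases after the start, and ADR1-L1 has it 33 bases after. The G-box CACGTG was in 0 of 9 members and 7.68% of promoters, and the S1 bZIP element ACTCAT in 0 of 9 and 14.7%. The TGA element TGACG, whose letters can overlap those of TTGAC, was in ADR1-L2 and, 3 times, in NRG1.2, or 2 of 9 members, and in 23.1% of promoters. A match is a description of these letters and not a site.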

How the data were processed

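Messenger RNA of whole seedlings was sequenced in 12 libraries. The authors deposited whole-number counts per gene, 1 table per library, for 28775 genes, and 0 library columns were left unmatched. Reads went through Bowtie 0.12.8, SAMtools 0.1.18 and FastQC with the genome build TAIR10, per the submitters' processing notes, which give no order. How reads were counted, by which strand, and what became of reads with multiple hits was not given in the sources used here.

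Differences were tested by edgeR 4.0.16 (R 4.3.3). The filterByExpr rule, at a minimum count of 10, kept 18388 genes, and TMM factors (trimmed means of M values) scaled the libraries. A single quasi-likelihood fit with a group term took in all 12 libraries, and its common biological coefficient of variation was 13.2%. Calls needed an adjusted p under 0.05 (Benjamini-Hochberg, over the 18388 genes). Standard errors were derived from the F statistic, so intervals can disagree slightly with p-values.

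The members and the lists of related genes were chosen with earlier results of these data known. All 9 members are described. Of each list, up to 4 genes with the smallest p in the SnRK1-labelled line are named, with those called in the S1-labelled line. TN2, FMO1 and PR1 are named as genes with 0 wild-type counts, and ALD1 and WRKY54 as genes that passed the filter only through the SnRK1-labelled line. Both namings were made after their values were seen.

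Alternatives were other scalings (relative log expression, library totals, the 5000 most expressed genes), DESeq2 1.42.0, limma-voom (limma 3.58.1), other filters, only the groups compared, a replicate block, each library left out, no organelle genes, a 2-fold threshold and summed copies. Tested on simulated data for the SnRK1-labelled comparison with 17780 genes, the fit recovered 71% of 2-fold and 96% of 4-fold changes with 5 false calls. Only 100 genes were changed at each fold, in both directions equally, and all genes shared 1 spread. In the real comparison 35.4% of genes were called higher and 33.0% lower, so the simulation does not test the scaling there.

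Exon lengths, overlaps, coding sequences and promoters came from the TAIR10.1 assembly and annotation of RefSeq, to which 28009 genes and 9 of 9 members matched by locus code. Motifs and sequences were read with Python 3.11.15 and Biopython 1.88, and figures were drawn with matplotlib 3.10.9.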

Additional observations from a re-analysis of the deposited data

Results flagged for a closer look

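For 8 of the 9 members the response of the SnRK1-labelled line differed from that of the S1-labelled line by a test of the difference itself (edgeR's quasi-likelihood test with Benjamini-Hochberg adjustment). By the same test 27.2% of all genes tested were called positive and 27.3% negative. Among the lipase-like genes this difference of log2 fold changes was 2.37 for EDS1, 5.70 for EDS1B, 3.19 for PAD4 and 2.46 for SAG101. Among the helpers it was 1.13 for ADR1, 0.78 for ADR1-L1, 0.54 for ADR1-L2 and 2.14 for NRG1.2. The experiments also differed in days of Est.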

How the results depend on the processing

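The 8 calls in the SnRK1-labelled line held in every alternative that gave them a value except the 2-fold threshold, which ADR1-L2 missed and which left 7 calls there and 6 of 8 in the difference of responses. They had log2 fold changes of 2.87 to 3.54 for EDS1, 5.29 to 6.10 for EDS1B and 0.86 to 1.50 for ADR1-L2. In the S1-labelled line the 0 higher calls became 2 by library totals, 1 with DESeq2, 1 with only the groups compared and 0 to 1 when libraries were left out. Between the wild types, 1 member was called higher with DESeq2 and 0 to 1 with a library left out. The 2 lower calls became 1 with limma-voom or a 2-fold threshold. They also became 1 with only the groups compared, where EDS1B was not tested, and with summed copies, where it was part of EDS1, while PAD4 was called in both. They were 0 to 2 with a library left out. The sign turned for values that had not passed. EDS1B in the S1-labelled line became 0.49 without replicate 3 of the wild type and 0.03 without replicate 3 of the line, within a range of -0.57 to 0.49 over the libraries left out. The difference of responses for NRG1.1 became 0.39 by library totals, 0.26 on the 5000 most expressed genes and 0.55 with NRG1.2 added to it, which passed (adjusted p = 0.00725, edgeR). Between the wild types EDS1 became -0.05 with EDS1B added, and SAG101 became -0.04 by library totals, -0.03 on the 5000 genes and -0.06, -0.04 and -0.00 without 1 of 3 libraries, within a range of -0.06 to 0.13. The causes were not tested, apart from the added counts of the copies.

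The replicate block left the members' counts of calls at 8, 0, 8 and 2 in the 4 comparisons and changed no call, with EDS1 at 2.94 in the SnRK1-labelled line. Deviations of same-numbered libraries correlated at -0.09 to 0.20, with 7 of 18 pairs over 0.1. All 3 pairs between the lines were over it (0.11 to 0.20), but of each line with its own wild type only replicate 1 of the SnRK1 experiment was (0.12), so the numbers were not taken to pair the groups compared. The fit of only the groups compared was not run for the difference of responses, which uses all 4 groups. Summed copies stand under EDS1, NRG1.1 and ADR1-L1. EDS1B had 1 to 25 counts per library outside the SnRK1-labelled line, which limits its precision there.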
